A study of Drosophila melanogaster with 3 samples.

Results

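The genes described are the tubulins and the cytoplasmic actins of Drosophila melanogaster. They were picked by gene name: the actins Act5C and Act42A, the alpha-tubulins alphaTub84B, alphaTub84D, alphaTub85E and alphaTub67C, the beta-tubulins betaTub56D, betaTub60D and betaTub97EF, and the gamma-tubulin gammaTub23C. All 10 were found among the 14161 genes of the deposited tables. Where a gene had several transcripts, the one with the highest mean of the 3 groups stood for it. Whole larvae of the third instar and of 3 kinds were sequenced: metafemales, which have an extra X chromosome on a diploid set of autosomes, males and females. Per the labels, stocks of every group were kept at 20 degrees and each group had 3 biological repeats. The sources used here do not name the strain, the cross or the age in hours. The authors deposited 1 value per transcript and group, so the repeats cannot be compared with each other, no difference has a replicate check, and no p-value is given.

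Alpha- and beta-tubulin pair into the dimers from which microtubules are built, and gamma-tubulin sits in a ring-shaped complex that starts new microtubules. Cytoplasmic actin forms the filaments of the cell cortex, of adhesion sites and of moving cells, while separate muscle actins build the sarcomere. Flies carry a small family of genes for each protein, in which a widely expressed isotype makes up most of the pool and others are restricted to tissues such as muscle, testis or ovary. Act5C, alphaTub84B and betaTub56D are widely used as loading or reference genes.

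Values are counts per 1000000 transcript counts (CPM). The library totals, inferred from the values, were 69.0 to 112 M transcript counts for metafemales, 31.6 to 92.4 M for males and 65.6 to 89.2 M for females. Intervals are at 95%, come from these totals and cover counting error only. A gene was called higher or lower where its log2 fold change on value + 1 CPM reached 2-fold, over the 10942 genes that averaged 1 CPM or more. By this rule 4.81% of genes were higher and 10.9% lower in metafemales against females. In males against females 15.3% were higher and 1.96% lower, and in metafemales against males 8.61% were higher and 28.6% lower. The split between higher and lower genes depends on scaling. In metafemales against females there were 526 higher and 1188 lower genes as deposited, 975 and 479 with median-of-ratios scaling, and 1040 and 454 when the median autosomal gene was set to no change. In metafemales against males the counts were 942 and 3126 as deposited, 1622 and 2267 with median-of-ratios scaling, and 1645 and 2284 with autosomal scaling. These scalings raise every metafemale value relative to the female one by 0.41 and 0.46 on the log2 scale, before 1 CPM is added. They move males against females by -0.04 and 0.01.

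Of the 10 genes, 9 averaged 1 CPM or more, and alphaTub67C did not. In metafemales against females 2 of these 9 genes, alphaTub85E and betaTub97EF, were at least 2-fold higher, 0 were lower and 7 lay within 2-fold. Over all genes 4.81% were higher and 10.9% lower. The called pair are an alpha and a beta isotype, each a minor part of its class. The median of the 9 genes was -0.09 (log2), beside -0.22 over all genes. In males against females 0 of the 9 genes were called in either direction, beside 15.3% of all genes called higher and 1.96% called lower. Their median was -0.14, beside -0.04 over all genes. In metafemales against males the same 2 genes were higher, beside 8.61% of all genes, and 0 were lower, beside 28.6%. The median was -0.06, against -0.40 over all genes. The comparisons share groups, so they are not independent of each other.

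**Figure D1:**
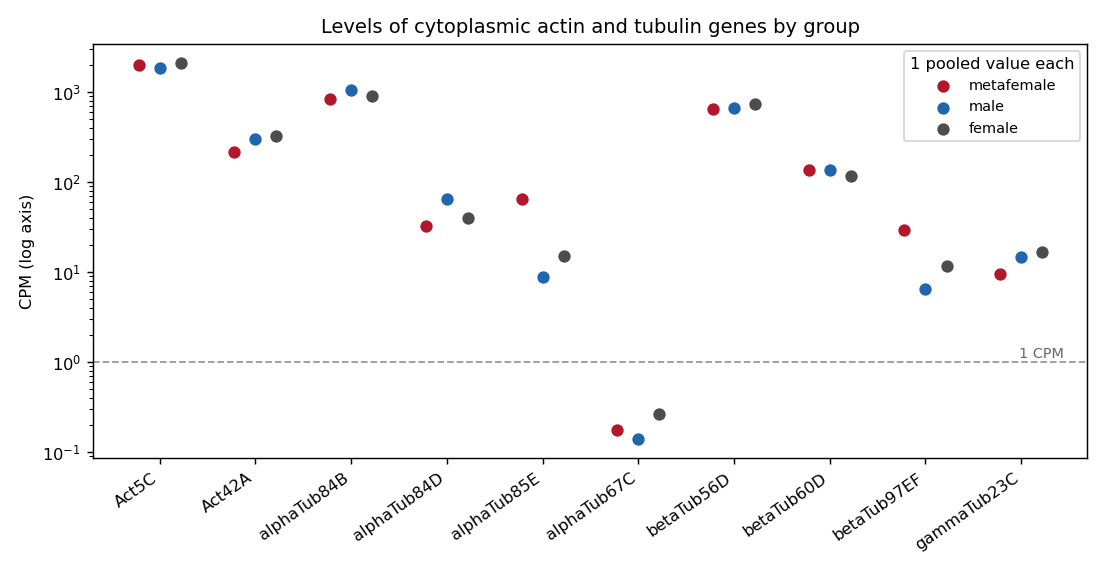
Level of each gene in CPM on a log axis, with 1 pooled value per group (metafemale, male and female from left to right) and a dashed line at 1 CPM. The metafemale point stands highest for alphaTub85E and betaTub97EF, the male point stands highest for alphaTub84D, and alphaTub67C lies below 1 CPM in all 3 groups.

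The alpha-tubulin gene alphaTub85E (chromosome arm 3R, transcript NM_079573) is known for expression in developing muscle, in chordotonal sense organs and in somatic cells of the testis. It had 66.0 CPM in metafemales, 8.77 CPM in males and 15.3 CPM in females. The metafemale value stood well above the other two, and the male value was the lowest. Metafemales were 4.31-fold higher than females (4.16 to 4.47, counting error only), a log2 fold change of 2.04 on value + 1 CPM. Only 96 of the 10942 genes, this one included, had a fold change at least as large. Metafemales were 7.52-fold higher than males (7.13 to 7.94). In males it was 1.74-fold lower than in females (1.64 to 1.85), and 4.32% of all genes had a more negative fold change in that comparison. Since the ratio of 2 genes within a group does not depend on scaling, it was also set against the main isotype. Its count was 7.75% of that of alphaTub84B in metafemales, 0.821% in males and 1.68% in females.

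The beta-tubulin gene betaTub97EF (3R, NM_143349), an isotype of restricted expression, had the same order of groups. It had 29.3 CPM in metafemales, 6.47 CPM in males and 11.8 CPM in females. Its metafemale level was thus the highest and its male level the lowest, as for alphaTub85E. Its folds were smaller than those of alphaTub85E in both comparisons of metafemales, and slightly larger in males against females. Metafemales were 2.47-fold higher than females (2.37 to 2.58; log2 fold change 1.24), and 346 genes had a fold change at least as large. They were 4.52-fold higher than males (4.24 to 4.82). Males were 1.83-fold lower than females (1.70 to 1.96). The second transcript of the gene had nearly the same values, at 28.9, 6.46 and 11.8 CPM in metafemales, males and females. As a share of the betaTub56D count, betaTub97EF made 4.50% in metafemales, 0.956% in males and 1.58% in females.

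In metafemales against females and against males, markers of muscle moved in the same direction as these isotypes. Of 12 muscle genes, all above 1 CPM, 9 were at least 2-fold higher in metafemales than in females and 0 lower. Over all genes 4.81% were higher and 10.9% lower. Under median-of-ratios and autosomal scaling 975 and 1040 of the 10942 genes were higher, and so were all 12 muscle genes. Their summed level was 22816 CPM in metafemales, 5001 CPM in males and 6820 CPM in females, and none of them was at 0 in any group. In males against females 1 muscle gene was lower, beside 1.96% of all genes, and 11 were within 2-fold. The lower gene was Unc-89, a giant protein of the sarcomere (-1.06). Among the 11, Mlc1 (0.31) and wupA (0.34) were higher in males, unlike the isotypes, and the others were lower. The part of muscle RNA in the isotype levels was not tested. In whole larvae, a change in the number of cells of a type and a change in RNA per cell cannot be told apart.

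The muscle-associated beta isotype had a different pattern. betaTub60D (2R, NM_079118), which is known from the mesoderm, from developing muscle and from differentiating neurons, had 137 CPM in metafemales, 136 CPM in males and 118 CPM in females. As deposited its values were close together, with metafemales and males level and females slightly lower. Metafemales exceeded females 1.16-fold (1.14 to 1.18) and, as deposited, did not differ from males beyond counting error (log2 fold change 0.01, ratio 0.988 to 1.02). Metafemales stood 0.45 (log2) above males with both other scalings. The log2 fold change against females was 0.22 as deposited and 0.63 and 0.67 with the other scalings, within 2-fold in each case. Over all 3 groups the highest and lowest values of betaTub60D differed by 0.22 (log2), and 7.29% of genes had a smaller range. Neuron markers were likewise all within 2-fold: 8 of 8 in each comparison, with 178 CPM in sum in metafemales, 151 CPM in males and 190 CPM in females.

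By a measure of likeness, the genes nearest in pattern to these isotypes were named. It was the distance between the 3 log2 values (CPM + 1) after each gene's mean was subtracted, among genes with a mean within 2-fold of the isotype's. For alphaTub85E the nearest of 3422 genes were CG8562, CG15093, CG6337, Cyp4s3 and su(r), at distances of 0.02 to 0.15. CG8562, the nearest, had 76.9 CPM in metafemales, 10.3 CPM in males and 18.2 CPM in females. For betaTub97EF the nearest of 4142 genes were bgm, CG9512, smp-30, CG30043 and CG11313, at distances of 0.06 to 0.08. Each distance rests on 3 values and describes shape alone.

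The most abundant alpha-tubulin, alphaTub84B (3R, NM_057424), is the general isotype and also the main alpha-tubulin of the testis. It had 851 CPM in metafemales, 1069 CPM in males and 908 CPM in females. As deposited, the male value was the highest and the values of metafemales and females were near each other. Metafemales differed from females by a log2 fold change of -0.09, which turned to 0.32 and 0.37 under the other scalings. Metafemales against males were at -0.33 as deposited and at 0.12 under both other scalings, which make metafemales the highest group. Males were 1.18-fold above females (1.17 to 1.18).

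alphaTub84D (3R, NM_079540) encodes nearly the same protein as alphaTub84B and is also broadly expressed. It had 32.7 CPM in metafemales, 65.3 CPM in males and 40.0 CPM in females, so males stood clearly highest. Males were 1.63-fold above females (1.59 to 1.68), with a log2 fold change of 0.69, and 1958 of 10942 genes had a fold change at least as large. Metafemales were below males by 1.94-fold to 2.06-fold, the interval from counting error. On value + 1 CPM the log2 fold change was -0.98, just short of the call, and it was -0.54 under both other scalings. The second transcript listed for the gene did not share the male excess: it had 2.10 CPM in metafemales, 2.75 CPM in males and 2.69 CPM in females. The sources used here do not say how reads that match both alphaTub84B and alphaTub84D were counted, so the level of the rarer copy is uncertain.

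alphaTub67C (3L, NM_079285), the maternal alpha-tubulin that is made in the ovary and loaded into the egg, was nearly absent. It had 0.177 CPM in metafemales, 0.141 CPM in males and 0.265 CPM in females, which corresponds to about 48, 24 and 60 counts. All 3 values lie above the level that 3 counts give, at most 0.0178 CPM in any group. As deposited, the ratio of metafemales to females was 0.668, with an interval of 0.450 to 0.998 by counting error alone. The other scalings raise this ratio by 0.41 and 0.46 (log2), which would bring 1 inside the interval. The ratio of males to females was 0.531 (0.319 to 0.872). The interval for metafemales against males ran from 0.754 to 2.14 as deposited, so no difference between them was detectable there at this depth. Both other scalings raise this ratio by 0.45 (log2), which would put the interval just above 1. All 6 markers of ovary and early germ line were below a mean of 1 CPM too, with sums of 0.990 CPM in metafemales, 3.80 CPM in males and 1.23 CPM in females.

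The main beta-tubulin, betaTub56D (2R, NM_079071), is present in most cells. It had 650 CPM in metafemales, 677 CPM in males and 748 CPM in females. The 3 levels were close together, with females highest as deposited and metafemales highest under the other scalings. The log2 fold change of metafemales against females was -0.20 as deposited, near the median of all genes, and 0.21 and 0.26 with the other scalings. Males were at -0.14 against females. The 4 listed transcripts gave nearly the same picture, from 625 to 650 CPM in metafemales, from 655 to 677 CPM in males and from 720 to 748 CPM in females.

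gammaTub23C (2L, NM_057456), the gamma-tubulin of somatic centrosomes, had the most negative fold change of the 9 genes in metafemales against females. It had 9.46 CPM in metafemales, 14.8 CPM in males and 16.7 CPM in females. Metafemales stood lowest, and males and females were close to each other. Metafemales were 1.76-fold below females (1.68 to 1.85), with a log2 fold change of -0.76 that did not reach the call and was -0.38 and -0.33 under the other scalings. Males were 1.13-fold below females (1.07 to 1.19). Its count was 1.11% of that of alphaTub84B in metafemales, 1.38% in males and 1.84% in females. The genes of the gamma-tubulin ring complex, which holds this protein, were all within 2-fold in metafemales against females, 6 of 6, with a median of -0.30 as deposited and of 0.08 and 0.12 with the other scalings. In metafemales against males 1 of the 6 was lower, Grip71, which recruits the complex to the spindle, at a log2 fold change of -1.17. In that comparison 28.6% of all genes were lower as deposited, and 0 of the 6 were lower with the other scalings.

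**Figure D2:**
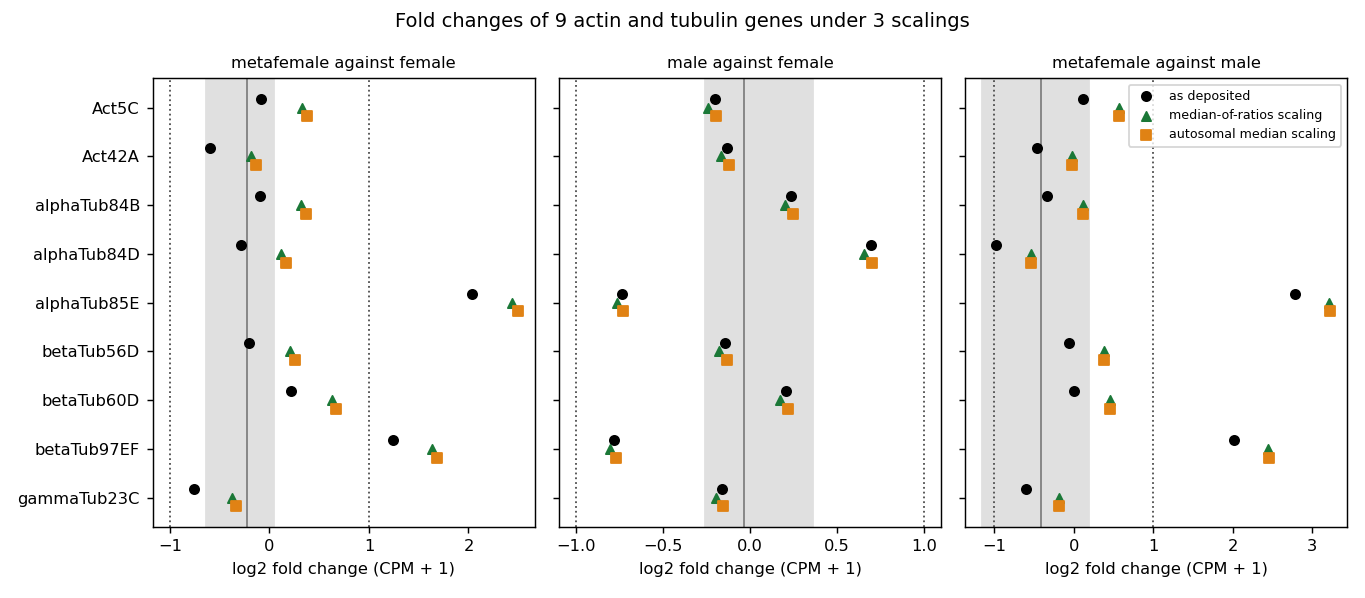
Log2 fold changes (CPM + 1) of the 9 genes above 1 CPM in the 3 comparisons, as deposited (circles) and with median-of-ratios (triangles) and autosomal (squares) scaling. The grey band spans the middle 50% of all genes, the grey line is their median and dotted lines mark 2-fold. alphaTub85E and betaTub97EF lie beyond 2-fold in metafemales against females and against males under each scaling, and no gene does in males against females.

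Both cytoplasmic actins were within 2-fold everywhere, and they did not move alike. Act5C (X, NM_001014726) had 2001 CPM in metafemales, 1845 CPM in males and 2126 CPM in females, a narrow range with males lowest. Act42A (2R, NM_078901) had 219 CPM in metafemales, 301 CPM in males and 331 CPM in females, so metafemales stood lowest. Against females, metafemales were at -0.09 (log2) for Act5C and at -0.59 for Act42A. Under median-of-ratios and autosomal scaling the values were 0.33 and 0.37 for Act5C and -0.18 and -0.14 for Act42A. The Act42A count was 10.9% of the Act5C count in metafemales, 16.3% in males and 15.5% in females, a ratio that scaling does not change.

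Act5C is the only X-linked gene of the family here. Its fold change of -0.09 in metafemales against females lay below the median of X-linked genes, 0.03, and above that of autosomal genes, -0.29. Of 1734 X-linked genes, 34.9% had a lower fold change. In males against females it was at -0.20, beside medians of -0.19 for X-linked and -0.01 for autosomal genes. The 4 Act5C transcripts ranged from 1645 to 2001 CPM in metafemales, from 1497 to 1845 CPM in males and from 1693 to 2126 CPM in females. Their fold changes in metafemales against females lay between -0.09 and -0.04.

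The use of these genes as references depends on the scaling. As deposited, the highest and lowest of the 3 groups differed by 0.20 (log2) for Act5C, 0.20 for betaTub56D, 0.22 for betaTub60D and 0.33 for alphaTub84B, beside a median of 0.80 over all genes. For Act5C 6.58% of genes had a smaller range and for betaTub56D 6.43%. With autosomal scaling the ranges were 0.57 for Act5C, 0.39 for betaTub56D, 0.67 for betaTub60D and 0.37 for alphaTub84B. Act42A then had the smallest range of the family, 0.14, and 4.47% of genes had a smaller one. With median-of-ratios scaling Act42A was again the narrowest, at 0.18.

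Levels of different genes were compared per kilobase, with the length of the canonical transcript in a later Ensembl annotation. alphaTub84B made 89.2% of alpha-tubulin in metafemales, 92.9% in males and 94.5% in females. alphaTub85E took 7.76% in metafemales, 0.856% in males and 1.79% in females, and in metafemales it was ahead of alphaTub84D (3.03%), while in males (5.02%) and females (3.68%) alphaTub84D was ahead. In the beta class betaTub56D made 84.2%, 73.0% and 89.1% in metafemales, males and females. betaTub97EF took 3.79% in metafemales, 0.698% in males and 1.41% in females. The order of the beta isotypes in the family was the same in all 3 groups, betaTub56D first, betaTub60D next and betaTub97EF last. The spread between libraries is not known, so neighbours in these orders may differ by less than it.

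The lower male share of betaTub56D went with a further gene. betaTub85D, the beta-tubulin of spermatocytes and sperm tails, had 84.0 CPM per kilobase in males and made 15.4% of male beta-tubulin, against 0.0284% in metafemales and 0.0683% in females. The testis-expressed copies CG32396 (betaTub65B), a beta-tubulin, and CG7794, an alpha-tubulin, also took their largest shares in males. CG32396 made 0.0126% of its class in metafemales, 0.973% in males and 0.00885% in females, and CG7794 made 0.0181%, 1.21% and 0.0209%. All 10 spermatocyte and testis markers above 1 CPM, of 12, were at least 2-fold higher in males than in females. Apart from mia, these markers were below 1 CPM in metafemales and in females and passed the filter only through males. The filter thus largely fixed this count in advance. The 12 markers summed to 3.95 CPM in metafemales, 513 CPM in males and 6.23 CPM in females. The male levels of alphaTub84B and alphaTub84D stand beside these values, and the part of testis RNA in them was not tested. Summed over their class, alpha- and beta-tubulins stood at a ratio of 1.20 per kilobase in metafemales, 1.20 in males and 1.11 in females.

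The actin pool was of another kind in metafemales. The muscle actin Act57B had 7532 CPM in metafemales, 989 CPM in males and 1408 CPM in females, and made 78.0%, 38.2% and 43.1% of all 6 actins per kilobase. Act5C made 12.5% of the actin pool in metafemales, 42.9% in males and 39.2% in females, although its own level lay between 1845 and 2126 CPM throughout. The length used for Act5C was that of its longest annotated transcript, 2863 bases, and the shortest has 1637 bases. A shorter length would raise the Act5C shares, lower those of the other actins and could turn over the order of Act5C and Act57B in females. Act42A made 2.40% in metafemales, 12.3% in males and 10.7% in females. Among the other actins, Act87E (1.58) and Act79B (1.23), both expressed in muscle, were also at least 2-fold higher in metafemales against females. Act79B was near the filter, at 3.72 CPM in metafemales, 0.967 CPM in males and 1.01 CPM in females. Act88F averaged below 1 CPM, with 0.570 CPM in metafemales and 0.323 CPM in females. Actin coding sequences are much alike, and the counting of reads they share is not described in the labels.

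**Figure D3:**
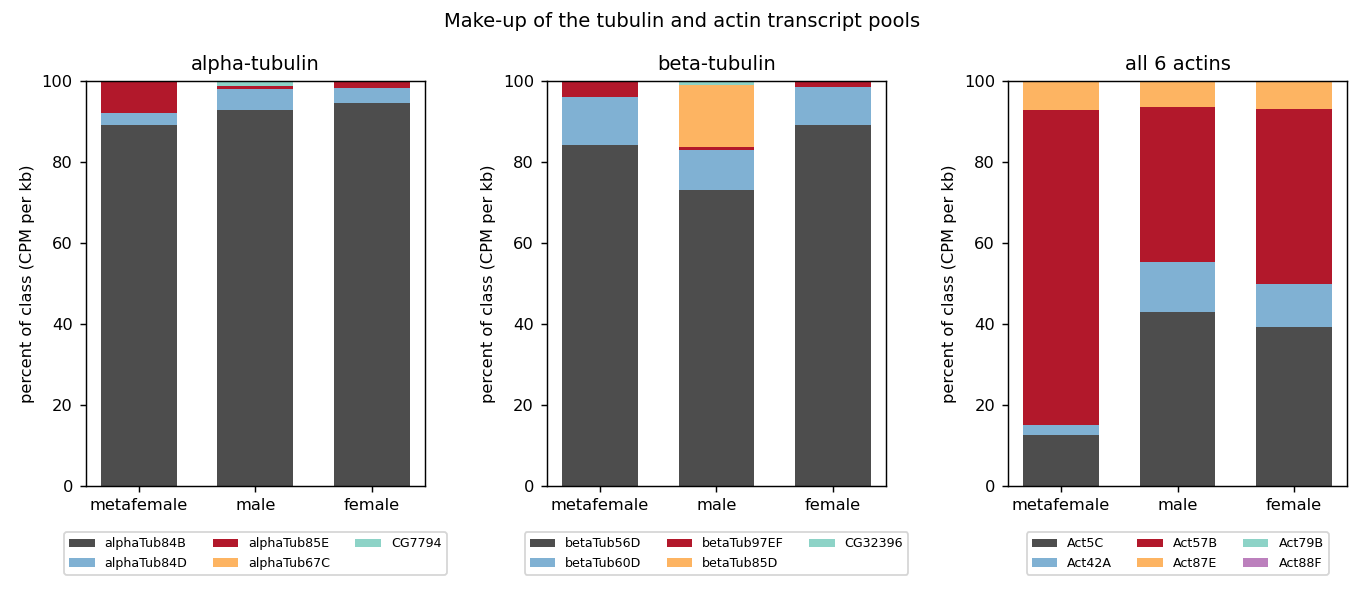
Share of each isotype in the alpha-tubulin, beta-tubulin and actin pools in percent of CPM per kilobase, for metafemales, males and females, with 1 pooled value per bar. The alphaTub85E and betaTub97EF segments are largest in metafemales, betaTub85D is visible in males alone, and Act57B fills 78.0% of the metafemale actin pool.

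Genes that fold, assemble or bind these proteins were mostly within 2-fold in metafemales against females. Over all genes 4.81% were higher and 10.9% lower in this comparison. Of 13 folding genes (the chaperonin CCT, prefoldin and tubulin cofactors) 2 were lower and 0 higher, with a median of -0.52 beside -0.22 for all genes. They were the tubulin cofactors CG1890 (Tbca, 16.9 CPM in metafemales and 37.1 CPM in females) and CG11242 (Tbcb, 12.3 CPM in metafemales and 26.3 CPM in females). With the other scalings 0 were called, and the median of the folding genes was -0.12 and -0.07. Among 14 genes of microtubule dynamics above 1 CPM, 1 was lower and 0 higher, around -0.22 as deposited and around 0.18 and 0.23 with the other scalings. It was stai, a stathmin that binds free tubulin dimers, at 27.9 CPM in metafemales and 96.2 CPM in females (-1.75, and -1.34 and -1.30 with the other scalings). All 14 motor genes, kinesin and dynein subunits among them, were within 2-fold, around -0.49 as deposited and around -0.14 and -0.11 with the other scalings.

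The next counts are for metafemales against females too, where 10.9% of all genes were lower and 4.81% higher. Of 24 genes of actin assembly and turnover 3 were lower, near the share over all genes, and 0 higher (median -0.27, but 0.13 and 0.18 with the other scalings). They were chic, which encodes profilin (364 CPM in metafemales and 810 CPM in females), tsr, which encodes cofilin (207 CPM in metafemales and 426 CPM in females), and the Arp2/3 subunit gene Arc-p20 (-1.04). None of the 24 was lower with the other scalings and 1 was higher. Among 13 genes of actin crosslinking and myosin, 1 was higher and 0 lower (median 0.07): the X-linked Actn, which encodes the alpha-actinin of the sarcomere and of cytoplasmic actin bundles, at 490 CPM in metafemales and 125 CPM in females. With the other scalings 3 of the 13 were higher and 0 lower, around 0.48 and 0.53. Imaginal disc markers (6 of 8 lower, 0 higher, 74.9 CPM in sum in metafemales and 128 CPM in females) and markers of dividing cells (3 of 8 lower, 0 higher, 88.0 CPM in metafemales and 173 CPM in females) stood lower in metafemales too. With the other scalings 4 disc markers and 0 division markers were lower. Their part in the levels of gammaTub23C, Act42A and the assembly genes was not tested.

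**Figure D4:**
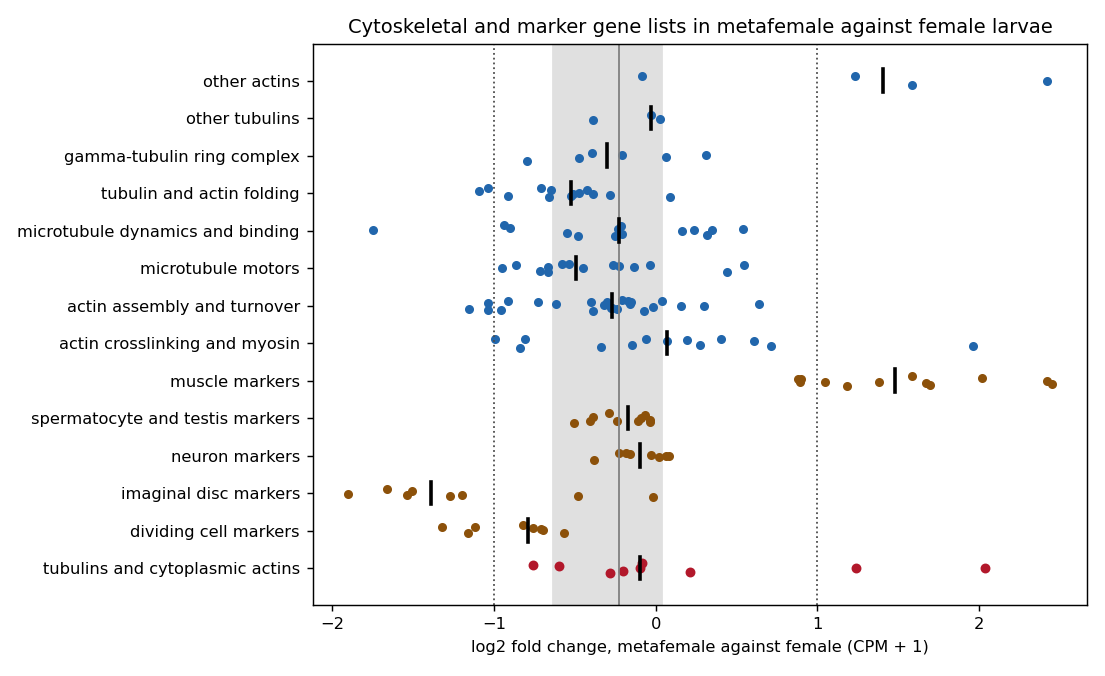
Log2 fold changes (CPM + 1) in metafemales against females for each gene above 1 CPM of the cytoskeletal lists (blue), marker lists (brown) and the tubulins and cytoplasmic actins (red, bottom row). Black bars are list medians, the grey band is the middle 50% of all genes and dotted lines mark 2-fold. The tubulin and actin family has its median at -0.09 with 2 genes beyond 2-fold, and the muscle markers lie around 1.48.

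In males against females, the cytoskeletal lists held few called genes. The 3 testis tubulins above 1 CPM were higher, as was Arp53D, an actin-related gene of the male germ line, at 21.4 CPM in males and 0.0786 CPM in females. These tubulins and Arp53D were below 1 CPM in metafemales and in females. They passed the filter only through males, so the filter largely fixed their calls. Of the microtubule dynamics list 1 gene was higher, chb, which encodes the microtubule-stabilising CLASP protein, at 103 CPM in males and 49.3 CPM in females. In the lists of the ring complex, folding, motors, actin assembly and actin crosslinking, 0 of 6, 0 of 13, 0 of 14, 0 of 24 and 0 of 13 genes were called in either direction. Over all genes 15.3% were higher and 1.96% lower in males against females. In metafemales against males 8.61% of all genes were higher and 28.6% lower. The lists of the ring complex, folding, microtubule dynamics, motors, actin assembly and actin crosslinking did not exceed this share of lower genes. The 3 testis tubulins and Arp53D were all lower in that comparison, calls that the filter again largely fixed. The other 3 actins above 1 CPM were higher. The crosslinking and myosin list had 5 higher and 0 lower of 13 in that comparison. It was led by Actn (2.45), Tm1, a tropomyosin (1.30), beta-Spec (1.19) and Vinc, which encodes vinculin (1.02). All of these but Tm1 are X-linked. In that comparison X-linked genes had a median of 0.18, beside -0.50 for autosomal genes. The assembly list had 4 lower and 0 higher of 24: Arc-p20 (-1.12), the cofilin phosphatase gene ssh (-1.12), chic (-1.06) and tsr (-1.04). With the other scalings 0 of that list were lower and 4 higher. The folding list had 2 lower and 0 higher of 13, CG1890 (-1.28) and the tubulin cofactor gene tbce (-1.02), and 0 were called with the other scalings. Of the microtubule dynamics list 3 of 14 were lower and 0 higher: stai (-1.87), the spindle pole gene asp (-1.36) and chb (-1.26). Of the motors 1 of 14 was lower, the X-linked kinesin gene Klp3A (-1.43), and 0 were higher. With the other scalings, 1 gene was lower and 2 were higher in each of the dynamics and motor lists.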

How the data were processed

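Per the submitters' processing notes, TopHat was the aligner, HTSeq the counter and dm3 the genome build. Versions, annotation release and strand setting: not given in the sources used here. Deposited by the authors was the fraction of each group's transcript counts, in 1 column per group, for 3698 X-linked and 19040 autosomal transcripts, and each column sums to 1 over both tables. All values below 0.05 CPM (2170 metafemale, 981 male and 1749 female) could be written as whole numbers of 3 steps, within a relative tolerance of 1e-05, as the mean of 3 libraries' fractions would give. The library totals were inferred from these steps. Intervals are exact binomial on effective depths of 269 M (metafemale), 169 M (male) and 226 M (female) counts.

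Fractions were multiplied by 1000000. Genes were kept at a mean of at least 1 CPM and called at 2-fold on value + 1 CPM. Calls and intervals were tested on simulated data (Python 3.11.15, scipy 1.17.1). Levels per kilobase and chromosome arms come from Release 6 annotations, which are not dm3, so no coordinates are given. Exons of other genes overlap those of 0 of the 10 genes there. Members and lists were chosen with earlier results of these data known. Of 144 list genes 143 were found, some under older names, and Act57B, Act87E, betaTub85D and gammaTub37C stand in 2 lists each. Up to 4 genes with the largest change past 2-fold were named from each cytoskeletal list, while marker lists are given mainly as counts and sums. From the 10 genes, the pair with the widest range over the groups was given its 5 nearest patterns. Without values per library no test over replicates could be run.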

Additional observations from a re-analysis of the deposited data

How the results depend on the processing

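The counts of called genes of the family, 2, 0 and 2 in the 3 comparisons, were identical under 6 alternatives: both other scalings, 0.1 CPM or nothing added, sums over transcripts and the lowest transcript above 1 CPM. Of 27 fold changes (9 genes in 3 comparisons), 0 changed their call and 6 changed sign, each time with both other scalings. These are Act5C, alphaTub84B, alphaTub84D and betaTub56D in metafemales against females, and alphaTub84B and betaTub56D in metafemales against males. The median of the 9 genes became 0.32 (median-of-ratios) and 0.37 (autosomal) in metafemales against females, -0.18 and -0.13 in males against females, and 0.39 and 0.39 in metafemales against males. With a mean of at least 10 CPM, 456 genes of all were called in males against females (1884 at 1 CPM) and 1834 in metafemales against males (4068 at 1 CPM). Sums over transcripts count the same reads more than once, and gave alphaTub85E 7.75%, 0.854% and 1.78% of alpha-tubulin and betaTub97EF 2.16%, 0.444% and 0.780% of beta-tubulin in metafemales, males and females. Leaving out each replicate in turn was not run, because the columns hold no values per replicate. No paired analysis was possible because each group has 1 pooled column. Depth limits only alphaTub67C, and the spread between larvae is unknown for every gene.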
